A study of Arabidopsis thaliana with 6 samples.

Results

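The 10 genes described here encode the proteins particular to the Arabidopsis U1 small nuclear ribonucleoprotein (U1 snRNP), *U1-70K*, *U1A* and *U1C*, its auxiliary proteins *PRP39A*, *PRP39B*, *LUC7A*, *LUC7B* and *LUC7RL*, and *PRP40A* and *PRP40B*, the relatives of the gene disrupted in the mutant. They were chosen by locus, as 10 of the 33602 genes in the count table, together with the 247 exon, intron and splicing-event entries of these loci in the junction table. RNA was sequenced from whole *prp40c-1* plants, which the labels give as prp40c -/- and which carry a T-DNA insertion in *PRP40C* (3 libraries), and from whole wild-type plants of Col-0 (3 libraries). *prp40c-1* is a single insertion line in the Col-0 background. All plants were 2 weeks old by the labels, with harvest between days 10 and 14, and grew in continuous light of 50 µmol at 22°C. Since the RNA came from whole plants, fewer cells of a type and less RNA per cell cannot be told apart in any value below.

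The U1 snRNP finds the 5′ end of an intron: its RNA pairs with the donor site, and this begins the assembly of the spliceosome. U1-70K and U1A bind the U1 RNA, and U1C stabilizes the pairing with the donor site. PRP39, LUC7 and PRP40 were first described in the yeast U1 snRNP, where LUC7 affects the choice of weak donor sites and PRP40 contacts proteins at the branch point. In plants each is encoded by a small family, and Arabidopsis has a further member of the PRP40 family, PRP40C.

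Reads counted on genes numbered 34200225 to 40919516 per library, and levels are given in CPM, the counts scaled to a common library size with the TMM method of edgeR. *PRP40C* itself (AT3G19840) had 11.8, 14.0 and 12.7 CPM in the *prp40c-1* libraries, against 24.6, 28.1 and 22.6 CPM in the wild-type libraries. Its log2 fold change was -0.97 (adjusted p = 2.1e-05 by the quasi-likelihood test of edgeR), so the libraries matched their labels. Of 3 leaf markers, *CAB2* was higher in *prp40c-1* (log2 fold change 0.32, adjusted p = 0.0137 by edgeR) and *RCA* lower (-0.25, adjusted p = 0.0334), while *RBCS1A* (-0.16) and the 5 root markers did not pass an adjusted p of 0.05. The summed level of the leaf markers was 20113 to 20811 CPM in *prp40c-1*, against 21008 to 22042 CPM in wild type, and that of the root markers 54.2 to 62.2 CPM, against 46.6 to 74.2 CPM. The seed markers summed to less than 1 CPM in every library and the flower markers to at most 1.17 CPM, with *SESA3* at 0 in all. The part of organ composition in the results below was not tested.

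All 10 genes were expressed and tested. Their levels were compared per kilobase of exon (RPKM). *U1-70K* averaged 41.6 ± 1.32 RPKM in *prp40c-1* and 32.3 ± 1.18 RPKM in wild type, *PRP39A* 37.3 ± 1.28 RPKM in *prp40c-1* and 36.4 ± 0.473 RPKM in wild type, and *U1A* 36.0 ± 2.42 RPKM in *prp40c-1* and 36.1 ± 4.34 RPKM in wild type (SD, n = 3 each). These were the most abundant members in both genotypes. The exon length of 2495 bases used for *U1-70K* includes its intron 6 of 909 bases, which was mostly spliced out, so its RPKM is understated beside those of the other members. A middle group of *LUC7B* (19.6 ± 0.928 RPKM in *prp40c-1* and 17.2 ± 0.739 RPKM in wild type), *U1C* (18.8 ± 1.67 RPKM in *prp40c-1* and 17.9 ± 2.48 RPKM in wild type) and *LUC7A* (18.8 ± 0.32 RPKM in *prp40c-1* and 18.4 ± 1.21 RPKM in wild type) had overlapping libraries. *PRP40A* lay below *LUC7B* without overlap, at 17.1 ± 0.535 RPKM in *prp40c-1* and 14.7 ± 1.05 RPKM in wild type. Its libraries overlapped those of *U1C* in both genotypes. *PRP40B* (13.9 ± 0.254 RPKM in *prp40c-1* and 11.7 ± 0.421 RPKM in wild type) and *LUC7RL* (11.1 ± 1.37 RPKM in *prp40c-1* and 11.6 ± 0.434 RPKM in wild type) overlapped in wild type only, and *PRP39B* was lowest, at 7.20 ± 0.568 RPKM in *prp40c-1* and 6.51 ± 0.294 RPKM in wild type. The *U1A* and *PRP40A* genes overlap an annotated gene on the other strand, and the sources used here do not say whether the counting used strand. Stretches of 50 exon bases that recur elsewhere in the genome made up 0.972% of *LUC7A* and none of the other 9 genes.

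**Figure D1:**
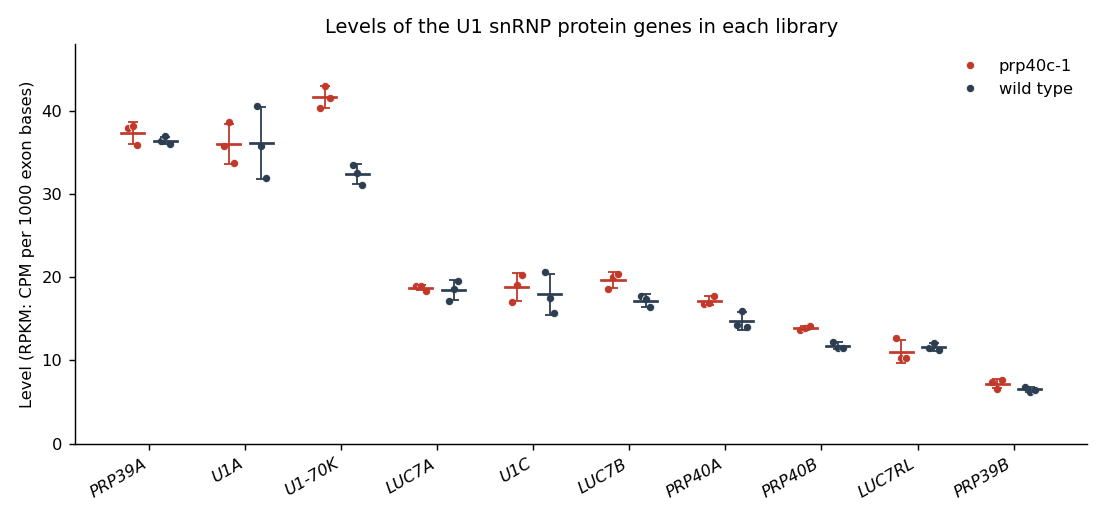
Level of each of the 10 genes in RPKM (CPM per kilobase of exon, linear axis from 0), ordered by the wild-type mean, with *prp40c-1* in red at the left and wild type in dark blue at the right of each gene. Points are libraries, and bars show the mean and the SD of 3 libraries. For *U1-70K* the *prp40c-1* libraries lie between 40.4 and 43.0 RPKM, above the wild-type libraries at 31.1 to 33.4 RPKM.

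To ask whether loss of *PRP40C* was accompanied by other levels of the U1 snRNP transcripts, the genotypes were compared gene by gene. No member reached the study's call, an adjusted p below 0.05 with an absolute log2 fold change above 0.58, which corresponds to 49.5% higher or 33.1% lower, by edgeR or by DESeq2. Over all 22182 tested genes, 2.81% were called higher and 0.852% lower. Without the fold-change limit, 2 of the 10 members passed an adjusted p of 0.05, *U1-70K* and *PRP40B*, both higher in *prp40c-1*, and no member was lower, where 7.05% of all tested genes were higher and 4.15% lower. The median log2 fold change of the 10 members was 0.11, beside -0.00094 over all tested genes. The 95% intervals of all 10 members lay within the limit of 0.58 in both directions, from a lowest bound of 17.0% below wild type (*LUC7RL*) to a highest of 41.6% above it (*U1-70K*).

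*U1-70K* (AT3G50670, chromosome 3, 18826300 to 18829618, minus strand), whose product binds the U1 RNA and, in plants, SR splicing factors, had the largest difference of the 10. It had 101, 107 and 104 CPM in the *prp40c-1* libraries, against 83.4, 81.2 and 77.5 CPM in the wild-type libraries. Every *prp40c-1* library was above every wild-type library. The log2 fold change was 0.36 (standard error 0.064, adjusted p = 0.0015 by edgeR), or 28.7% higher with a 95% interval of 17.1 to 41.6%. The exon length used includes the retained intron described below, so the gene count may include reads from within it. The part of such reads in the difference was not tested. Leaving out 1 library at a time, the adjusted p stayed between 0.0032 and 0.0187.

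*PRP40B* (AT3G19670, chromosome 3, 6828062 to 6836582, minus strand) and *PRP40A* (AT1G44910, chromosome 1, 16975604 to 16982965, plus strand) encode proteins with WW and FF domains, which bind proline-rich partners and the tail of RNA polymerase II. *PRP40B* had 43.0, 44.0 and 44.6 CPM in the *prp40c-1* libraries, against 38.6, 36.2 and 36.4 CPM in the wild-type libraries, without overlap. It was 18.3% higher with a 95% interval of 6.51 to 31.5% (log2 fold change 0.24, adjusted p = 0.0388 by edgeR), and the adjusted p was above 0.05 when any 1 of the 6 libraries was left out, at 0.0613 to 0.146. *PRP40A* had 54.5, 54.7 and 57.6 CPM in *prp40c-1*, against 46.1, 51.6 and 45.4 CPM in wild type, and these libraries did not overlap either. Its difference of 16.6% (95% interval 4.74 to 29.9%) missed the threshold (adjusted p = 0.0639 by edgeR) and passed it only without wild-type replicate 2 (adjusted p = 0.0283), the wild-type library nearest to the mutant. In absolute terms, mean *PRP40B* was 6.80 CPM and mean *PRP40A* 7.93 CPM higher in *prp40c-1*, and the disrupted *PRP40C* was 12.3 CPM higher in wild type. Reads counted on *PRP40C* in the mutant need not come from intact transcripts, so this difference does not measure the loss of full-length mRNA. A relation between the 3 differences was not tested.

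*LUC7B* (AT5G17440, chromosome 5, 5749762 to 5753643, plus strand) was the only other member whose libraries did not overlap. It had 28.4, 30.6 and 31.1 CPM in *prp40c-1*, against 27.2, 26.6 and 25.0 CPM in wild type (log2 fold change 0.19, 95% interval 0.02 to 0.37, adjusted p = 0.157 by edgeR). In all, 4 of the 10 members had higher libraries without overlap and none had lower ones, where the shares over all tested genes were 15.5% and 13.5%. The libraries of the remaining members overlapped, and none passed the test. *PRP39B* (AT5G46400) had a log2 fold change of 0.15, *U1C* (AT4G03120) of 0.07, *PRP39A* (AT1G04080) of 0.04, *LUC7A* (AT3G03340) of 0.02, *U1A* (AT2G47580) of -0.001 and *LUC7RL* (AT5G51410) of -0.07, with adjusted p-values by edgeR between 0.362 and 0.998. The sign was not stable for *U1A*, which was positive without *prp40c-1* replicate 1 or 3 or wild-type replicate 1 (at most 0.089), for *U1C*, which was -0.02 without wild-type replicate 3, and for *LUC7A*, which was -0.03 without wild-type replicate 1.

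**Figure D2:**
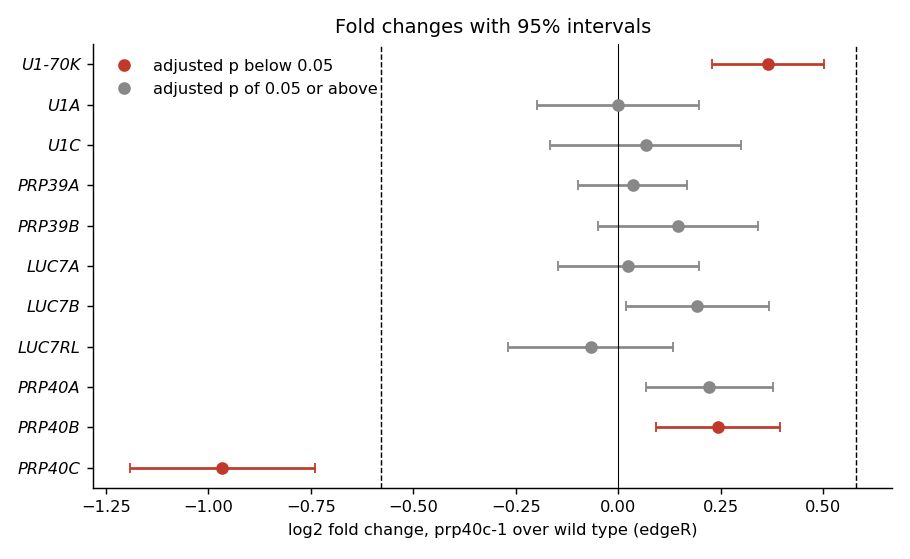
Log2 fold change of *prp40c-1* over wild type for the 10 members and, in the bottom row, the disrupted gene *PRP40C*, with 95% intervals from edgeR (n = 3 libraries per genotype). Red marks an adjusted p below 0.05, grey one of 0.05 or above, and the dashed lines stand 0.58 to either side of 0. All intervals of the members lie between the lines, and that of *PRP40C* lies to the left of both.

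Genes of the Sm proteins and of the RBP45 and RBP47 proteins were counted as 2 further lists. None of the 14 genes of the Sm proteins, which form the ring shared by the U1, U2, U4 and U5 particles, passed an adjusted p of 0.05 in either direction (range of log2 fold changes -0.28 to 0.08, median -0.11). Of the 8 genes of the RBP45 and RBP47 proteins, relatives of a yeast U1 protein that binds U-rich sequence, 3 were lower in *prp40c-1*, none was higher and 5 did not pass (median -0.18). Over all tested genes 4.15% were lower and 7.05% higher by the same rule. *RBP47C'* had 39.2, 40.9 and 38.6 CPM in the *prp40c-1* libraries, against 45.0, 52.9 and 50.6 CPM in the wild-type libraries (log2 fold change -0.32, adjusted p = 0.0129 by edgeR). *RBP47A* had a log2 fold change of -0.24 (adjusted p = 0.0342) and *RBP47C* of -0.22 (adjusted p = 0.0487). These calls depended on the libraries included: the adjusted p exceeded 0.05 in 2 of 6 fits with a library left out for *RBP47C'* (without *prp40c-1* replicate 3, 0.0666, or wild-type replicate 2, 0.0503), in 5 of 6 for *RBP47A* (up to 0.138) and in all 6 for *RBP47C* (0.0504 to 0.189). *RBP47C* and *RBP47C'* are neighbours that share 210 stretches of 50 exon bases, 11.7% and 12.3% of their own, so their counts are uncertain.

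The splicing of the members' own introns was then examined. An intron of the 10 genes had reads across its 2 exon-intron boundaries, which come from unspliced RNA, and reads spliced across it. Its retained share sets the boundary reads against themselves plus the spliced reads weighted by 2, since unspliced RNA is counted at both ends. Reads that join an end of the intron to some other site are left out of this share. The files list 128 introns for the members, of which 123 had all 3 counts. Boundary reads were absent from all 6 libraries for 51 of the 123, and the median retained share over the 6 libraries together was 0.135%, against 0.228% over 90477 introns of all genes with spliced reads. A retained share above 10% was found for 5 of the 123 (4.07%), against 2.72% of the introns of all genes. Introns are numbered below from the 5′ end of the gene over those with complete counts.

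The 5 introns with a retained share above 10% lie in *U1-70K*, *PRP40A*, *LUC7B*, *PRP39A* and *LUC7RL*. Each was the most retained intron of its gene by this measure, which for *PRP39A* leaves out reads that skip the next exon. Donor sites of 4 of them are shown with that of the *LUC7A* intron that follows the same exon bases as the *LUC7B* intron, since this pair has nearly the same donor site and unlike retention. Each line gives 15 exon and 15 intron bases in the direction of the gene, read from the RefSeq assembly TAIR10.1, whose chromosomes have the lengths of TAIR10. Capitals mark the 9 bases that can pair with U1 RNA, the last 3 of the exon and the first 6 of the intron.
*U1-70K* intron 6, chr3:18828334-18828363, minus strand: ggaccaattaaaCGGGTAGGTtattctgag
*PRP40A* intron 27, chr1:16982618-16982647, plus strand: aaaaaatcaagaAAGGTAGGTacaccctag
*LUC7B* intron 8, chr5:5752478-5752507, plus strand: gagcgtctatgaCAGGTTAACtttaattac
*LUC7A* intron 9, chr3:788826-788855, plus strand: gagcgtctatgaCAGGTTAAGttccttgct
*PRP39A* intron 6, chr1:1054186-1054215, plus strand: ggagacttcaatAAGGTACTGgggtttaac

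Over 90422 donors of spliced introns placed on the genome, the most frequent base at each of the 9 positions spells AAGGTAAGT. The donor of *PRP40A* matches it at 8 of the 9 positions, those of *U1-70K* and *PRP39A* at 6 and those of *LUC7B* and *LUC7A* at 5. These are matches to the most frequent base and not counts of pairs with U1 RNA. At position 1 the donors had A in 36.1% and C in 33.3%, so a mismatch there says little. Of all these donors, 5.79% match at 8 or more and 29.1% at 5 or fewer, and of the 123 member introns 8.13% and 31.7%. The *LUC7B* and *LUC7A* donor windows are identical at 23 of 30 bases, with all 15 exon bases the same. Their acceptor windows are identical at 14 of 30 bases. The intron had a retained share of 20.2% ± 3.15 in *prp40c-1* and 19.7% ± 9.36 in wild type for *LUC7B*, and of 2.19% ± 0.775 in *prp40c-1* and 1.55% ± 1.99 in wild type for *LUC7A* (SD, n = 3 each).

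No intron was called at the study's adjusted p of 0.15 and log2 change of 0.58, neither among the 13 member introns with enough boundary reads to test nor among all 13735 tested, so the share called was 0.0%. The measure here sets boundary reads against spliced reads. The study applied its thresholds to reads counted within introns, tested more introns and reported altered splicing for some, so the outcomes are not directly comparable. Among the 13, the smallest adjusted p was 0.402 (edgeR). DESeq2 called 120 of all introns and none of the members'. An unadjusted p below 0.05 was found for 1 member intron with a higher and 1 with a lower boundary-to-spliced ratio in *prp40c-1*, where 7.24% and 3.36% of all tested introns had one. The retained shares of the genotypes did not overlap for 3 member introns that were higher and 1 that was lower, where the shares over all tested introns were 11.7% and 5.88%. Retention differed between the genotypes over the genome as well: the boundary reads of all introns made up a retained share of 0.896% ± 0.00791 in *prp40c-1* and 0.777% ± 0.0342 in wild type (SD, n = 3 each), and the median log2 change of the boundary-to-spliced ratio over all tested introns was 0.19, beside 0.22 over the 13 member introns. Scaling the 2 kinds of reads to their own totals brought the genome-wide median to -0.01, and the introns with an unadjusted p below 0.05 then numbered 695 higher and 712 lower, beside 994 higher and 461 lower without this scaling.

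Intron 6 of *U1-70K* (chr3:18827440-18828348) is the longest of the 123 member introns, with 909 bases, where the median of the members is 104 bases and 0.59% of the introns of all genes are as long. It lies within the coding sequence, and 1 of the 2 RefSeq models of the gene keeps it in the mRNA. Transcripts with this intron are long known in Arabidopsis and encode a truncated protein. Reading on from the 166 codons before it, the first stop codon in frame ends 117 bases into the intron. This start of the intron is printed 5′ to 3′ on the minus strand, with the stop codon in capitals, because the retained form ends its reading frame there.
*U1-70K* intron 6, first 117 bases, chr3:18828232-18828348: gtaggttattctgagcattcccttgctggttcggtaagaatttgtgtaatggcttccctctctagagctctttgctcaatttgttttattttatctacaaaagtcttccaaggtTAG

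The retained share of this intron was 22.19, 18.96 and 21.43% in the *prp40c-1* libraries, against 10.51, 11.55 and 13.73% in the wild-type libraries. The groups did not overlap, and the mean share was 20.9% ± 1.69 in *prp40c-1* and 11.9% ± 1.64 in wild type (SD, n = 3 each), a ratio of 1.75, where the ratio over all introns was 1.15. In an exact permutation test of the shares p was 0.1, the smallest that 3 libraries against 3 allow. In the edgeR model the boundary-to-spliced ratio was 0.97 higher on the log2 scale (standard error 0.471, 95% interval -0.07 to 2.00, unadjusted p = 0.064, adjusted p = 0.5), which did not pass. Relative to the genome-wide median, with each kind of read scaled to its own total, the log2 change was 0.76 (95% interval 0.08 to 1.44, adjusted p = 0.431).

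Both boundaries of the intron contributed. Reads across the donor boundary numbered 72, 60 and 60 in the *prp40c-1* libraries, against 54, 38 and 37 in the wild-type libraries, and reads across the acceptor boundary 62, 57 and 72, against 20, 27 and 33. The log2 change was 0.68 with the donor boundary alone (adjusted p = 0.532 by edgeR) and 1.35 with the acceptor boundary alone (adjusted p = 0.308), and the difference between them was not tested. Reads spliced across intron 6 numbered 235, 250 and 242 in *prp40c-1*, against 315, 249 and 220 in wild type, and these overlapped.

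The spliced reads of the other 7 introns of *U1-70K* were set beside those of intron 6, a comparison added after the values were seen. In CPM, the 5 introns before it summed to 44.2 ± 2.82 in *prp40c-1* and 34.5 ± 1.78 in wild type, and the 2 introns after it to 20.5 ± 0.789 in *prp40c-1* and 15.5 ± 1.05 in wild type, log2 ratios of 0.36 and 0.40 (SD, n = 3 each). Reads spliced across intron 6 were at 6.72 ± 0.509 CPM in *prp40c-1* and 6.72 ± 1.39 CPM in wild type, a log2 ratio of -0.00038. Leaving out 1 library at a time, this ratio ran from -0.13 (without wild-type replicate 3) to 0.17 (without wild-type replicate 1), while those of the introns before and after ran from 0.31 to 0.40 and from 0.35 to 0.45. The wild-type libraries spread from 5.43 to 8.19 CPM at intron 6, so the overlap there does not show that its spliced reads were unchanged. Spliced reads were higher without overlap for 6 of the 8 introns, with log2 ratios from 0.20 (intron 7) to 0.58 (intron 8). The neighbouring intron 5, at 0.12, overlapped as intron 6 did. The spliced reads of intron 6 divided by the mean of the other 7 introns were 0.706, 0.697 and 0.778 in the *prp40c-1* libraries, against 1.11, 0.893 and 0.805 in the wild-type libraries, without overlap (exact permutation p = 0.1). The other 7 introns together had 6 boundary reads in the 6 libraries, against 592 for intron 6.

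**Figure D3:**
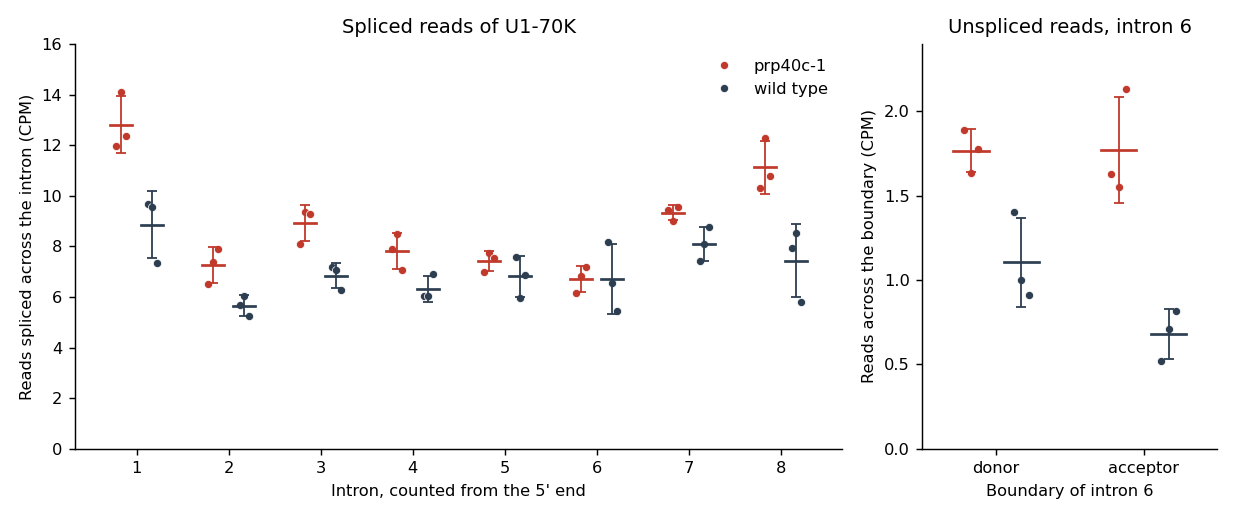
Left, reads spliced across each of the 8 introns of *U1-70K* in CPM, counted from the 5′ end; right, reads across the donor and acceptor boundaries of intron 6 in CPM. Red at the left of each pair is *prp40c-1* and dark blue at the right wild type, points are libraries, and bars show the mean and the SD of 3 libraries. The genotypes overlap at introns 5 and 6 and lie apart at the other introns and at both boundaries of intron 6.

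The most retained member intron was intron 7 of *LUC7RL* (chr5:20881596-20881698, 103 bases), in the 3′ untranslated region. It was mostly retained by this measure in both genotypes, with a share of 80.3, 76.0 and 87.3% in the *prp40c-1* libraries, against 68.2, 71.6 and 71.0% in the wild-type libraries. The shares did not overlap, and the log2 change of 0.87 did not pass (95% interval -0.42 to 2.18, adjusted p = 0.634 by edgeR). Reads across its donor boundary (79, 67 and 80 in *prp40c-1*, against 61, 82 and 62 in wild type) outnumbered those across its acceptor boundary (35, 28 and 16, against 29, 14 and 26) in every library. Spliced reads were few, with 14, 15 and 7 in *prp40c-1*, against 21, 19 and 18 in wild type.

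The other strongly retained introns did not differ beyond their spread. The 75-base intron 27 of *PRP40A*, the last intron listed for the gene, had a retained share of 17.35, 13.41 and 17.03% in *prp40c-1*, against 16.01, 25.75 and 13.13% in wild type (log2 change -0.20, 95% interval -1.39 to 0.99). Its sign turned without wild-type replicate 2 (0.15). Intron 6 of *PRP39A* (84 bases) had 13.7, 12.6 and 25.9% in *prp40c-1*, against 22.2, 20.5 and 21.1% in wild type (log2 change -0.40, 95% interval -1.77 to 0.95). This share leaves out reads from the same donor that skip the next exon, 186, 199 and 179 in *prp40c-1*, against 207, 176 and 230 in wild type. In every library they outnumbered the reads spliced across intron 6, so the share overstates retention among all RNA spliced from this donor. Intron 8 of *LUC7B* (303 bases) had 22.69, 21.29 and 16.67% in *prp40c-1*, against 17.24, 11.76 and 30% in wild type (log2 change 0.15, 95% interval -1.27 to 1.56), and without wild-type replicate 2 the log2 change was -0.23. For these 3 introns the intervals include changes of the study's size in both directions.

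Both member introns with an unadjusted p below 0.05 rested on few unspliced reads. Intron 4 of *PRP39A* (chr1:1053188-1053326), which only 1 of its 5 RefSeq models splices in this form, had 3 boundary reads in the 3 *prp40c-1* libraries together, against 15 in the 3 wild-type libraries. Its retained share was 0.0, 2.50 and 1.45% in *prp40c-1*, against 9.80, 6.90 and 10.7% in wild type (log2 change -2.63, 95% interval -5.08 to -0.46, adjusted p = 0.402 by edgeR). Left out of this share are reads spliced into the same acceptor from another donor, 116, 140 and 99 in *prp40c-1*, against 139, 132 and 199 in wild type. Intron 10 of *LUC7B* (chr5:5753007-5753093) had 2.26, 2.86 and 1.38% in *prp40c-1*, against 1.21, 0.327 and 0.295% in wild type (log2 change 1.75, 95% interval 0.08 to 3.53, adjusted p = 0.454 by edgeR). Neither pair of groups overlapped, and neither intron passed the adjusted threshold.

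**Figure D4:**
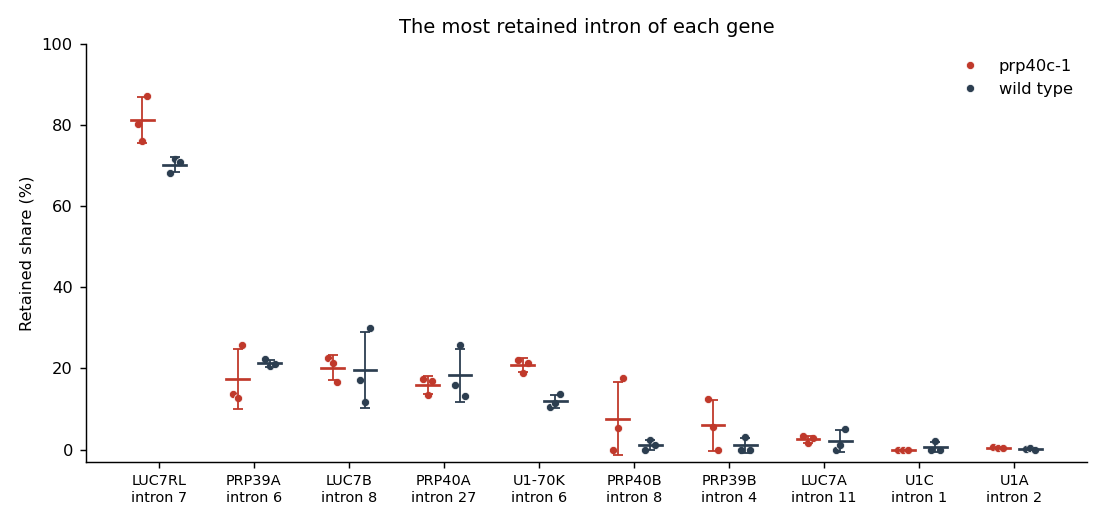
Retained share in percent of the most retained intron of each member, among introns with at least 30 reads, ordered by the share over all 6 libraries. Red at the left of each pair is *prp40c-1* and dark blue at the right wild type, points are libraries, and bars show the mean and the SD of 3 libraries. Shares lie apart for *LUC7RL*, *U1-70K* and, at under 1%, *U1A*. For *PRP39A* the share leaves out reads that skip the next exon.

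The most retained introns of the other genes were close to fully spliced in wild type. In *prp40c-1* and wild type their mean shares were 7.64% and 1.15% for intron 8 of *PRP40B*, 6.02% and 1.01% for intron 4 of *PRP39B*, 2.53% and 2.06% for intron 11 of *LUC7A*, 0.0% and 0.717% for intron 1 of *U1C*, and 0.479% and 0.145% for intron 2 of *U1A*. The mean for *PRP40B* rested on *prp40c-1* replicate 3, at 17.7%, beside 0.0 and 5.26% in the other *prp40c-1* libraries. Of these introns only that of *LUC7A* had enough reads to test, and it did not pass (adjusted p = 0.876 by edgeR). The shares of the genotypes overlapped for all of them but that of *U1A*. The 12 introns named here include 11 that follow a coding exon, and in each of the 11 a stop codon in frame lay inside the intron, 4 to 117 bases from its start. Other introns were not examined for stop codons, so this does not set the 11 apart. The frame rested on only 17 coding bases before intron 4 of *PRP39A* and 8 before intron 1 of *U1C*.

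The members had 1 annotated alternative event with both kinds of junction reads, a skipped exon of *PRP39A* just after its intron 6. The exon was included at 11.22, 14.59 and 13.32% in the *prp40c-1* libraries, against 15.68, 20 and 14.97% in the wild-type libraries. The libraries did not overlap, and the log2 change of -0.43 did not pass (95% interval -1.05 to 0.19, adjusted p = 0.727 by edgeR), where 6 of 1124 tested events of all genes were called (0.534%). Reads joining the exon to the one before it, which are also the spliced reads of intron 6, numbered 44, 45 and 43 in *prp40c-1*, against 49, 64 and 56 in wild type. Reads joining it to the next exon numbered 3, 23 and 12 in *prp40c-1*, against 28, 24 and 25 in wild type. Scaled to library size, the reads of the first junction overlapped between the genotypes, at 1.15, 1.23 and 1.27 CPM in *prp40c-1*, against 1.27, 1.68 and 1.38 CPM in wild type.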

How the data were processed

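Poly(A) RNA was sequenced by the authors as paired reads (TruSeq, HiSeq) and, per the submitters' processing notes, mapped with TopHat2 2.1.1 and handled with SAMtools 1.3 on TAIR10. The authors deposited raw read counts per gene and per junction, with no normalization. The authors' pooled inclusion and retention columns were not used. Here, the quasi-likelihood test of edgeR 4.0.16 (R 4.3.3) was run on the 6 libraries with TMM scaling and no term but genotype, for genes averaging 10 or more counts in either genotype, with Benjamini-Hochberg adjustment over all genes. Introns averaging 5 or more spliced reads in both genotypes and 5 or more boundary reads in either, and events averaging 5 or more reads in both, were fitted as the interaction of read type and genotype, with 1 effect per library and equal library sizes. Replicate libraries differed beyond sampling noise (chi-square per degree of freedom 6.7 to 17.5), with a biological coefficient of variation of 9.94%, and p-values measure the spread between libraries. Permutation tests were exact and two-sided. Alternatives were another normalization, filter and tool (DESeq2 1.42.0), a replicate block and each library left out. The edgeR fits of genes and of introns were also run on simulated counts with known changes, and the other steps were not.

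Named were all 10 members, the most retained intron of each with at least 30 reads, introns with an unadjusted p below 0.05, events with both junctions, and genes of the Sm and RBP45/47 lists at an adjusted p below 0.05. Members and lists were chosen with earlier results of these data known. Python 3.11.15 read the sequences. Of the introns placed on the genome, 99.0% began with GT and ended with AG.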

Additional observations from a re-analysis of the deposited data

How the results depend on the processing

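No member gene or intron was called under any alternative, except that 2 genes (*U1-70K* and *PRP40B*) were with no fold-change threshold, where 2485 of all genes passed in place of 813. With each library left out, 567 to 919 genes, 0 introns and 4 to 13 events were called over all features. Introns called over all genes numbered 0 in the edgeR fit with a minimum mean of 5 reads, where 1455 had an unadjusted p below 0.05. They numbered 137 with a minimum mean of 10 reads, 9 with column totals as library sizes, 120 by DESeq2 and 1 with the first boundary only. The cause was not tested. Signs that turned were those of *U1A*, which ran from -0.082 to 0.089 with a library left out and was 0.0024 with the replicate block, of *U1C* (-0.021 to 0.17), of *LUC7A* (-0.027 to 0.071), and of introns 27 of *PRP40A* (-0.45 to 0.15), 11 of *LUC7A* (-0.18 to 2.12) and 8 of *LUC7B* (-0.23 to 0.58, -0.053 with column totals, 0.97 with the first and -0.51 with the second boundary only). Libraries of the same number did not clearly deviate together (correlations -0.01, 0.07 and 0.03). With so few libraries per genotype this cannot show whether they were grown or processed together. A replicate block gave 819 genes, 0 introns and 4 events, 0 members, and an adjusted p of 0.056 for *PRP40B* and 0.0619 for *RBP47C*. Intron 4 of *PRP39A* had too few reads for the higher minimum, for either boundary alone and without wild-type replicate 3, as had introns 11 of *LUC7A* and 10 of *LUC7B* for the higher minimum and the first boundary. Of the 123 member introns, 13 had enough unspliced reads to test.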
